A study of Mus musculus with 12 samples.

Results

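Hox genes encode homeodomain transcription factors that give cells along the head-to-tail axis of the embryo their positional identity. They lie in the Hoxa, Hoxb, Hoxc and Hoxd clusters, and genes at matching places in different clusters form paralog groups. The order of the genes along a cluster follows the order of their expression along the body, with low-numbered groups marking the hindbrain and neck and high-numbered groups marking the tail end and the distal limb. Fibroblasts keep much of this positional code in culture. The genes described here are the 38 genes with a symbol of the form Hoxa, Hoxb, Hoxc or Hoxd plus a number, found by symbol among the 37287 gene IDs of the count tables, of which 32610 matched a symbol. The table of gene names holds 39 such symbols. The remaining one, Hoxd4, is not analysed here.

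All cells were mouse embryonic fibroblasts (MEFs) of genotype MyoD-/-; Myf5-/-, so every library, controls included, carries knockouts of both muscle determination genes. The first table holds 10 libraries. In 2 of them the fibroblasts received a lentivirus carrying MyoD, at a 1x and a 2x dose, and in another 2 a virus carrying Myf5, at a 1x and a 2x dose. In 5 libraries they received a GFP virus, at multiplicities of infection (MOI) of 15, 30, 60 and 120 and at a 1x dose, and 1 library came from cells with no virus. The second table holds 2 libraries, 1 of cells given a virus for a construct called Chimera at a 1x dose and 1 of cells given a 1x dose of MyoD virus from a second batch that was balanced to the Chimera virus. The cells were infected with polybrene, moved 24 hours later to a differentiation medium with insulin, transferrin and horse serum, and harvested after another 20 hours. The labels give neither the age of the embryos, the number of cultures, the share of cells that took up virus, nor the makeup of the Chimera. The p-values below therefore measure the spread between libraries, which within a group also holds dose and may otherwise be technical.

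The libraries held 68302462 to 81513727 counts, except the 4 MOI libraries with 17861174 to 22373706 and the second table with 25086096 for Chimera and 23679667 for MyoD. Myod1 was at 309 and 617 counts per 1000000 counts (CPM) in the 1x and 2x MyoD libraries and 5.21 to 5.99 CPM in the other 8 libraries of the first table, and Myf5 was at 150 and 249 CPM in the 1x and 2x Myf5 libraries and 11.9 to 24.4 CPM in the others. In the second table Myod1 was at 22.1 CPM in Chimera and 324 CPM in MyoD, and Myf5 at 165 CPM in Chimera and 14.7 CPM in MyoD. These levels check which virus was added but not the knockout, since the labels do not say which part of either gene was deleted. All 10 fibroblast markers were at 1 CPM or more in every library, and none of 7 epithelial markers passed the filter used for testing (at least 1 CPM in at least 2 libraries). The 4 MOI libraries stood apart from the 1x GFP library. Counts of Hox genes called against GFP are therefore given with all 5 GFP libraries and with the 1x GFP library alone. Fold changes of single genes are over all 5 GFP libraries unless stated.

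The fibroblasts expressed a broad anterior and trunk set of Hox genes, and no gene above paralog group 9 averaged 1 CPM over the 10 libraries of the first table. Of the 38 genes, 23 averaged at least 1 CPM, 7 of 11 in the Hoxa cluster, 8 of 10 in Hoxb, 5 of 9 in Hoxc and 3 of 8 in Hoxd. Every analysed gene of groups 2 to 8 was among them. In group 9, whose members pattern the thorax and the ribs, Hoxb9, Hoxc9 and Hoxd9 reached it and Hoxa9 averaged 0.760 CPM.

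In group 10, whose members suppress rib formation in the lumbar spine, Hoxa10 averaged 0.900 CPM and Hoxc10 averaged 0.814 CPM, both above Hoxa9. Hoxa10 was at 1.03 to 1.90 CPM in the 4 MOI libraries, 0.385 to 0.755 CPM in the other 6 libraries of the first table and 1.35 CPM in second-batch MyoD. Hoxc10 was at 0.560 to 1.11 CPM over the first table. In the gene models Hoxc10 shares 8.70% of its exon bases with Hoxc5, so part of its count may be reads of that gene. Groups 11 to 13 and Hoxd10 were near the floor of detection. The 9 genes of groups 11 to 13, which pattern the sacrum, the tail and the distal limb, together held 61 counts in the first table, or 0.0221% of all Hox counts. Of these 9, 5 genes (Hoxc11, Hoxc12, Hoxd11, Hoxd12 and Hoxd13) had no count in any of the 10 libraries. The highest of the genes in these groups and of Hoxb1, Hoxd1 and Hoxd10 reached only 8 counts in a library, that gene being Hoxc13. The positional factors outside the Hox clusters were also partly silent, with 13 to 16 of 39 at 1 CPM or more in a library.

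**Figure D1:**
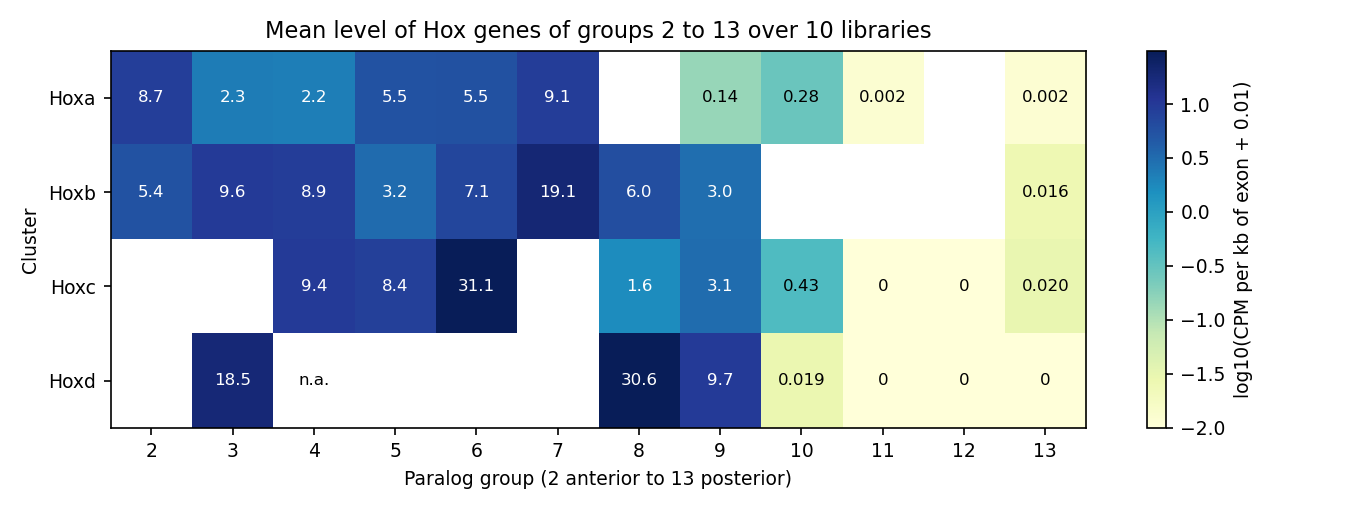
Mean CPM per kb of exon over the 10 libraries of the first table (printed in each cell, colour on a log10 scale) for the Hox genes of paralog groups 2 to 13, by cluster (rows) and paralog group (columns). Blank cells have no gene, and n.a. marks Hoxd4, which is not analysed here. Every cell of groups 2 to 8 is at 1.63 or more, while Hoxa9 is at 0.136, Hoxa10 at 0.275 and Hoxc10 at 0.426, and groups 11 to 13 are at 0.020 or less.

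Levels of different genes were compared per kilobase of exon (GENCODE vM21 gene models). Hoxc6, a gene of the neck-to-thorax boundary, averaged 31.1 CPM per kb over the 10 libraries, and Hoxd8, a trunk gene, averaged 30.6 CPM per kb. Hoxb7 averaged 19.1 CPM per kb and Hoxd3, a gene needed for the first neck vertebrae in mice, averaged 18.5 CPM per kb. These 4 genes were the highest in all 12 libraries and made up 44.6% to 52.2% of the summed Hox level per kb. The next genes, Hoxd9, Hoxb3, Hoxc4, Hoxa7, Hoxb4, Hoxa2 and Hoxc5, averaged 8.41 to 9.67 CPM per kb. Their ranges over the libraries overlap, so their order is not resolved. Among the lowest of the expressed genes were Hoxa4 with 2.21 and Hoxc8 with 1.63 CPM per kb.

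Per kb of exon, Hoxc6 and Hoxd8 changed places between libraries, an order that rests on the length used. Per kb of the longest transcript, Hoxc6 averaged 47.4 CPM and Hoxd8 31.9 CPM over the 10 libraries. By that length Hoxd3, with 26.1 CPM, was above Hoxb7, with 22.9 CPM. The places that follow are per kb of exon. Hoxc6 was first in both MyoD libraries, in both Myf5 libraries and in the GFP libraries at MOI 30, 60 and 120. Hoxd8 was first at MOI 15, in the 1x GFP library and in untransduced cells. Summed by cluster over the genes, the level per kb was 34.7 for Hoxa, 62.4 for Hoxb, 54.1 for Hoxc and 58.8 for Hoxd. The gene models bear on some of these levels, since Hoxd3 shares 53.1% of its exon bases with an annotated readthrough transcript and 9.26% with Hoxd4, and the count of the Hoxd3 ID may hold reads of both. On the opposite strand, Hoxb3 shares 52.9% and Hoxb2 27.3% of their exon bases with Hoxb3os. The labels do not say whether the counting used strand, so sense and antisense reads of these pairs cannot be told apart.

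The Hox genes as a whole took fewer counts in MyoD cells. Their summed level was 467 CPM in the 1x MyoD library and 376 CPM in the 2x MyoD library. It was 549 and 531 CPM in the 1x and 2x Myf5 libraries, 623 to 648 CPM in the MOI libraries, 548 CPM in the 1x GFP library and 541 CPM in untransduced cells. Both MyoD libraries were below every other library of the first table, and the MOI libraries were above all others.

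The mix by position shifted little beside the total. Paralog groups 1 to 4 supplied 39.1% and 37.0% of Hox counts in the 1x and 2x MyoD libraries, 40.8% and 39.2% in the Myf5 libraries, 37.9% to 41.0% in the GFP libraries and 41.4% in untransduced cells. Groups 5 to 8 supplied 53.6% and 55.0% in the MyoD libraries, 52.2% and 53.9% in the Myf5 libraries, 51.4% to 55.8% in the GFP libraries and 52.5% in untransduced cells. The 37.0% of the 2x MyoD library was the lowest share of groups 1 to 4 in the table, while both MyoD shares of groups 5 to 8 lay within the range of the GFP libraries. By cluster, Hoxd supplied 30.0% and 30.5% in the MyoD libraries and 30.7% and 29.6% in the Myf5 libraries. In the GFP libraries it supplied 33.5% to 35.0% and in untransduced cells 34.6%. Hoxc went the other way, with 26.4% and 26.2% for MyoD and 25.6% and 26.9% for Myf5. It held 22.3% to 24.6% in the GFP libraries and 23.8% in untransduced cells. The MyoD shares of Hoxa and Hoxb overlapped those of the GFP libraries. Apart from Hoxa10 in second-batch MyoD, no gene of groups 10 to 13 reached 1 CPM in a MyoD, Myf5 or Chimera library.

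**Figure D2:**
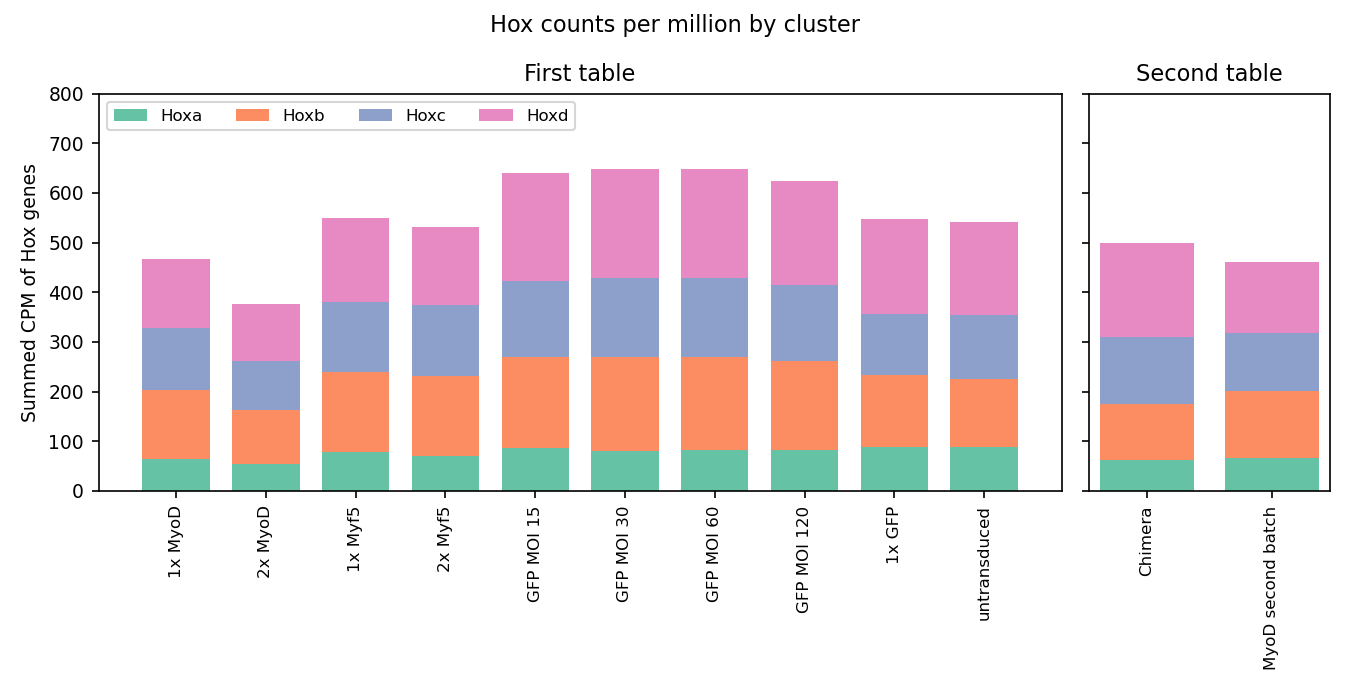
Summed CPM of the Hox genes (y axis) in each library (x axis), stacked by cluster. The totals of 467 and 376 CPM in the MyoD libraries lie below all other libraries of the first table, and the 623 to 648 CPM of the MOI libraries lie above them. The second table was counted separately and its bars are to be compared only with each other.

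The next comparison asks whether MyoD changes this positional code. Of the 26 Hox genes that passed the filter, 12 were lower and 0 were higher in MyoD than in GFP cells when all 5 GFP libraries were the control. Over all 13825 genes tested, 20.9% were called lower and 21.4% higher, and 42.4% in either direction. The median log2 fold change was −0.44 over the 26 Hox genes and −0.03 over all genes. The 26 include Hoxa9, Hoxa10 and Hoxc10, none of them called with either control. These passed the filter only through MOI libraries in which they were high, which favours negative values here. With the 1x GFP library alone as control, 7 Hox genes were lower and 0 higher, where 15.4% of all genes were called lower, 15.1% higher and 30.5% in either direction, and the Hox median was −0.29 against −0.01 over all genes. In bulk RNA, fewer cells of a type and less RNA per cell cannot be told apart. Beside these calls, the 10 fibroblast markers summed to 18087 and 13182 CPM in the 1x and 2x MyoD libraries and 24916 to 27002 CPM in the GFP libraries, a list of which 6 genes were lower and 0 higher, and the part of this in the Hox result was not tested. Of 12 muscle genes 11 were higher. Of 6 neural, 6 endothelial and 6 macrophage markers, 4, 1 and 2 passed the filter. Of those tested, 3 neural genes (Nes, Map2 and Tubb3), 1 endothelial (Vwf) and 1 macrophage gene (Csf1r) were higher and none lower. Over all genes 21.4% were higher. The part of these markers in the Hox result was not tested either. The neural list summed to 142 and 302 CPM in the MyoD libraries and 35.4 to 44.8 CPM in the GFP libraries, while its markers Sox10 and Rbfox3 were near 0. The endothelial list summed to 7.53 and 10.7 CPM in the MyoD libraries and 2.19 to 5.63 CPM in the GFP libraries, and the macrophage list to 14.4 and 15.2 CPM in the MyoD libraries and 10.7 to 13.4 CPM in the GFP libraries. Emcn was at or near 0 and Adgre1 had no count in the 10 libraries.

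Both choices of control called 4 of these genes, Hoxa2, Hoxb2, Hoxd3 and Hoxd8. The share of all genes called lower with both was not computed. Both comparisons use the same MyoD libraries and the 1x GFP library, so they are not separate evidence. The 1x GFP control is 1 library, so errors over it come from the groups with more libraries, the MOI series among them. The calls over 1x GFP were lost when the MOI libraries were left out of the fit. The log2 fold changes were then −1.38 for Hoxa2 and −0.58 for Hoxb2. Hoxa2, which sets the identity of the second pharyngeal arch, was at 10.1 and 6.28 CPM in the 1x and 2x MyoD libraries, against 15.9, 15.9, 16.7 and 16.2 CPM at MOI 15, 30, 60 and 120 and 21.4 CPM in the 1x GFP library. Both MyoD libraries were below every GFP library, and the 1x GFP library was the highest of the 5. The log2 fold change of Hoxa2 was −1.03 ± 0.20 (SE) over all GFP libraries, a level of 0.488 times GFP (edgeR's quasi-likelihood test, Benjamini-Hochberg adjusted p = 0.00403). Over the 1x GFP library it was −1.38 ± 0.21 (edgeR's quasi-likelihood test, adjusted p = 0.00417).

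Hoxd8 was at 63.3 and 52.2 CPM in the 1x and 2x MyoD libraries, against 98.7, 96.6, 95.8 and 95.4 CPM in the MOI libraries and 92.0 CPM in the 1x GFP library. The GFP libraries lay close together and the MyoD libraries were well below them. Its log2 fold change was −0.68 ± 0.07 over all GFP libraries (edgeR's quasi-likelihood test, adjusted p = 0.000236) and −0.66 ± 0.09 over 1x GFP (adjusted p = 0.00357). Hoxd3 was at 57.6 and 45.4 CPM in the MyoD libraries, against 96.4, 98.8, 96.1 and 93.3 CPM in the MOI libraries and 77.6 CPM in the 1x GFP library. Here the 1x GFP library was the lowest of the GFP libraries but still above both MyoD libraries. The log2 fold change of Hoxd3 was −0.79 ± 0.11 over all GFP libraries (edgeR's quasi-likelihood test, adjusted p = 0.000886) and −0.58 ± 0.12 over 1x GFP (adjusted p = 0.00946).

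Hoxb2, which acts in hindbrain segments and facial motor neurons, was at 15.1 and 12.4 CPM in the 1x and 2x MyoD libraries, against 23.0, 20.0, 19.9 and 17.0 CPM in the MOI libraries and 20.6 CPM in the 1x GFP library. The groups did not overlap, although the gap to the library at MOI 120 was small. Its log2 fold change was −0.50 ± 0.12 over all GFP libraries (edgeR's quasi-likelihood test, adjusted p = 0.0101) and −0.58 ± 0.16 over 1x GFP (adjusted p = 0.0253).

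The 2x MyoD library was also left out, with all 5 GFP libraries as the control. The log2 fold changes of Hoxd3 and Hoxd8 were then −0.64 and −0.56. Fewer genes were called in this fit than with both MyoD libraries, among the Hox genes and among all genes. The Hox median was −0.29, against −0.02 over all genes. Without the 1x MyoD library the Hox median was −0.56, against −0.03 over all genes. Leaving out a MyoD library was not tried with 1x GFP alone as control.

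**Figure D3:**
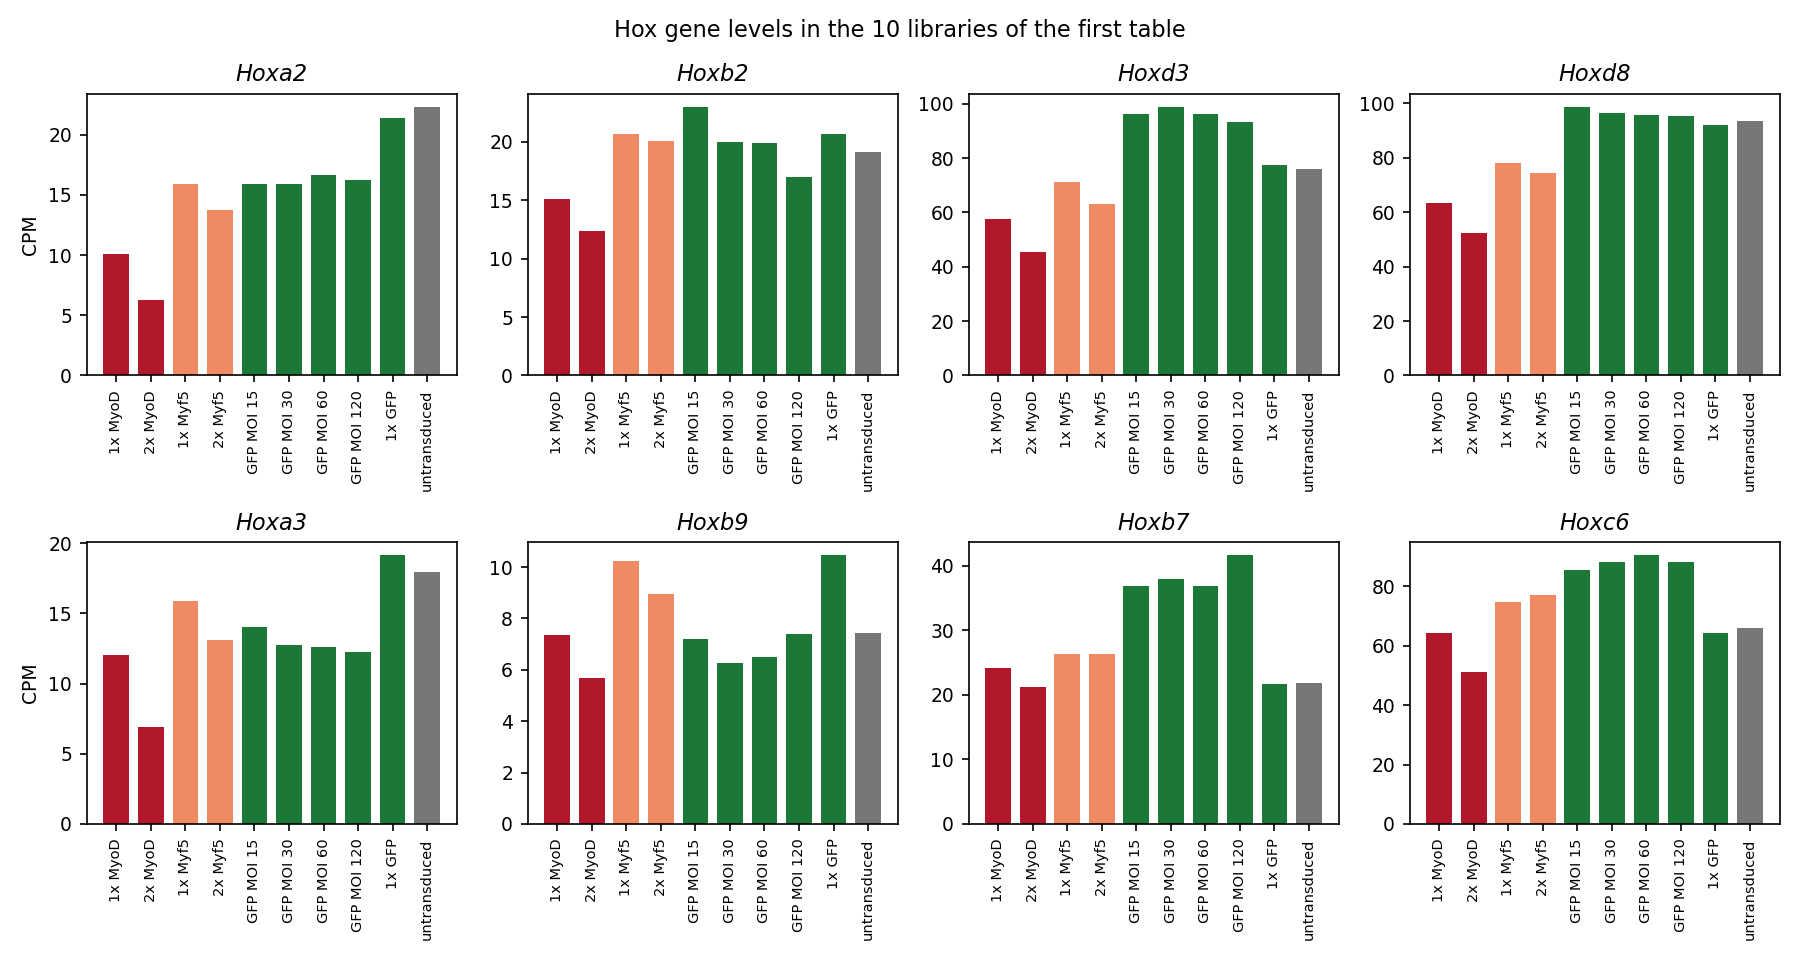
CPM (y axes, each from 0) of 8 Hox genes in the 10 libraries of the first table (x axis), coloured by group. Hoxa2, Hoxb2, Hoxd3 and Hoxd8 (top row) are lowest in the 2x MyoD library, with 6.28, 12.4, 45.4 and 52.2 CPM. In Hoxb7 and Hoxc6 (bottom right) the MOI libraries stand above all the others.

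The stretches around the annotated starts of Hoxa2, Hoxd3 and Hoxd8 are shown because these 3 are the genes lower under both controls that have an entry in the RefSeq promoter table (GRCm38.p6, 250 bases before to 50 after the start). MyoD and Myf5 bind E-boxes, spelled CANNTG. The sequences run 5′ to 3′ on the strand of the gene, with the E-box in capitals. Hoxa2 is chr6:52164782-52165081 on the minus strand, Hoxd3 is chr2:74711743-74712042 on the plus strand and Hoxd8 is chr2:74704365-74704664 on the plus strand.
Hoxa2: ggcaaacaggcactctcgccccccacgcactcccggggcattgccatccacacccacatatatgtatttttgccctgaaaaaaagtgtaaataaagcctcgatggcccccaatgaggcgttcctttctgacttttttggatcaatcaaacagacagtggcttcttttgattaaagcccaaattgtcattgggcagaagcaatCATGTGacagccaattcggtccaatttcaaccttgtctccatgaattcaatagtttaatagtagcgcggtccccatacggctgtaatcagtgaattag
Hoxd3: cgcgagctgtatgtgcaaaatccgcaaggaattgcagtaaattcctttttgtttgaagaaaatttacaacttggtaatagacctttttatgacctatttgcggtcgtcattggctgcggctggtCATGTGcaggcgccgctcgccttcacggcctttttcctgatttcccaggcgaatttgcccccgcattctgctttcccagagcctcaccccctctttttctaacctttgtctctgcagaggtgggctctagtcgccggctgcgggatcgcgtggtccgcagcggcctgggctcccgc
Hoxd8: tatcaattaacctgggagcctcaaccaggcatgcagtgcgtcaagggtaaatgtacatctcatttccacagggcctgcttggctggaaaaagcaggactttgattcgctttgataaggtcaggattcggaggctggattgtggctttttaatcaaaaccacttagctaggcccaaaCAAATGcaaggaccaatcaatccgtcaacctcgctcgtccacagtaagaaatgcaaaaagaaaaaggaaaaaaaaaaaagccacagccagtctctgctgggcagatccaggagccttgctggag
Each holds 1 E-box, CATGTG at position −48 from the start in Hoxa2, CATGTG at −126 in Hoxd3 and CAAATG at −74 in Hoxd8. An E-box in such a window is common, since 72.3% of all 32851 promoters in the table hold at least 1 on either strand, and 16 of 23 promoters of the Hox genes did. The form CAGCTG was in 16.3% of all promoters and 4 of 23 Hox promoters (Hoxa3, Hoxa5, Hoxa6 and Hoxa11), and the form CAGGTG was in 20.2% and 0 of 23, both strands searched. These forms are also counted under CANNTG. Binding was not measured here, and a match is a description of the letters only.

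The other calls depended on which GFP libraries were the control. Hoxa7, Hoxb3, Hoxb5, Hoxb6, Hoxb7, Hoxc6, Hoxc8 and Hoxc9, all trunk or neck genes, were lower in MyoD over all 5 GFP libraries, with log2 fold changes of −0.41 (Hoxa7) to −0.77 (Hoxc8) and adjusted p of 0.00876 to 0.0497 (edgeR's quasi-likelihood test). Over 1x GFP none of these 8 was called, with values of −0.41 (Hoxc9) to 0.07 (Hoxb7). Hoxb7 is an example. It was at 24.2 and 21.3 CPM in the 1x and 2x MyoD libraries and 21.7 CPM in the 1x GFP library. In the MOI libraries it was at 36.9, 37.9, 37.0 and 41.6 CPM. MyoD was thus below the MOI libraries and level with 1x GFP. Its call over all 5 GFP libraries was also lost by edgeR's quasi-likelihood test with RLE factors (adjusted p = 0.0535) and with no filter (0.0557). The same test lost it without any 1 MOI library (adjusted p of 0.0869 to 0.0914). It held with DESeq2 (adjusted p = 0.0176).

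Hoxc6 was at 64.2 and 51.1 CPM in the 1x and 2x MyoD libraries, against 85.6, 88.1, 90.4 and 88.2 CPM in the MOI libraries and 64.4 CPM in the 1x GFP library. Its 1x MyoD level was level with 1x GFP and only the 2x library was lower. Hoxc8, a gene of the thoracic spine and limb motor pools, was at 3.57 and 2.60 CPM in the MyoD libraries, against 5.54 to 6.73 CPM in the MOI libraries and 3.99 CPM in the 1x GFP library. Hoxc9 was at 5.38 and 4.70 CPM in the MyoD libraries, against 8.46 to 11.4 CPM in the MOI libraries and 6.71 CPM in the 1x GFP library. In both genes MyoD lay below every GFP library.

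In the Hoxb cluster, Hoxb3 was at 36.2 and 25.7 CPM in the 1x and 2x MyoD libraries, against 42.9 to 48.7 CPM in the MOI libraries and 39.6 CPM in the 1x GFP library. Hoxb5, which is linked to the position of the forelimb, was at 7.15 and 5.04 CPM in the MyoD libraries, against 10.8 to 11.3 CPM in the MOI libraries and 7.60 CPM in the 1x GFP library. Hoxb6 was at 12.2 and 9.07 CPM in the MyoD libraries, against 15.3 to 18.0 CPM in the MOI libraries and 13.1 CPM in the 1x GFP library. All 3 were lower in the 2x than in the 1x MyoD library. Hoxa7 was at 21.6 and 22.5 CPM in the MyoD libraries, against 30.8 to 34.4 CPM in the MOI libraries and 23.6 CPM in the 1x GFP library.

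Hoxa3, Hoxa5 and Hoxb9 were called only over the 1x GFP library. Hoxa3, needed for the thymus and parathyroid, was at 12.03 and 6.87 CPM in the 1x and 2x MyoD libraries, against 12.3 to 14.03 CPM in the MOI libraries and 19.1 CPM in the 1x GFP library. Its 1x MyoD level was just under the lowest MOI library and the 2x level was well below. The log2 fold change over 1x GFP was −1.01 ± 0.25 (edgeR's quasi-likelihood test, adjusted p = 0.0188), and over all GFP libraries −0.55 ± 0.25 (adjusted p = 0.102).

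Hoxa5, which patterns the lung and the neck-to-thorax spine, was at 9.38 and 7.73 CPM in the MyoD libraries, against 8.96 to 10.6 CPM in the MOI libraries and 12.5 CPM in the 1x GFP library. Hoxb9, a rib-patterning gene, was at 7.36 and 5.69 CPM in the MyoD libraries, against 6.27 to 7.38 CPM in the MOI libraries and 10.5 CPM in the 1x GFP library. Both overlapped the MOI libraries. The log2 fold changes over 1x GFP were −0.54 ± 0.13 for Hoxa5 (edgeR's quasi-likelihood test, adjusted p = 0.0187) and −0.67 ± 0.17 for Hoxb9 (adjusted p = 0.0189).

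The remaining expressed Hox genes were not called with either control. Hoxa4 stood on the other side, at 4.11 and 3.49 CPM in the 1x and 2x MyoD libraries, against 2.84 to 3.30 CPM in the MOI libraries and 3.58 CPM in the 1x GFP library (log2 fold change 0.31 ± 0.15 over all GFP libraries, edgeR's quasi-likelihood test, adjusted p = 0.111). Hoxc4 was at 24.5 and 20.7 CPM in the MyoD libraries, against 24.0 to 26.9 CPM in the MOI libraries and 21.3 CPM in the 1x GFP library. Its log2 fold change of −0.05 ± 0.09 was among those nearest to 0, with Hoxa6 at 0.02 ± 0.13. Hoxb4, Hoxb8, Hoxc5 and Hoxd9 had log2 fold changes of −0.38 (Hoxb4) to −0.23 (Hoxc5) over all GFP libraries and −0.29 (Hoxd9) to 0.16 (Hoxb8) over 1x GFP. The low genes Hoxa9, Hoxa10 and Hoxc10, which passed the filter only through libraries of the MOI series, had log2 fold changes of −0.78 (Hoxa10) to −0.14 (Hoxc10) over all GFP libraries, with standard errors of 0.27 to 0.47.

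**Figure D4:**
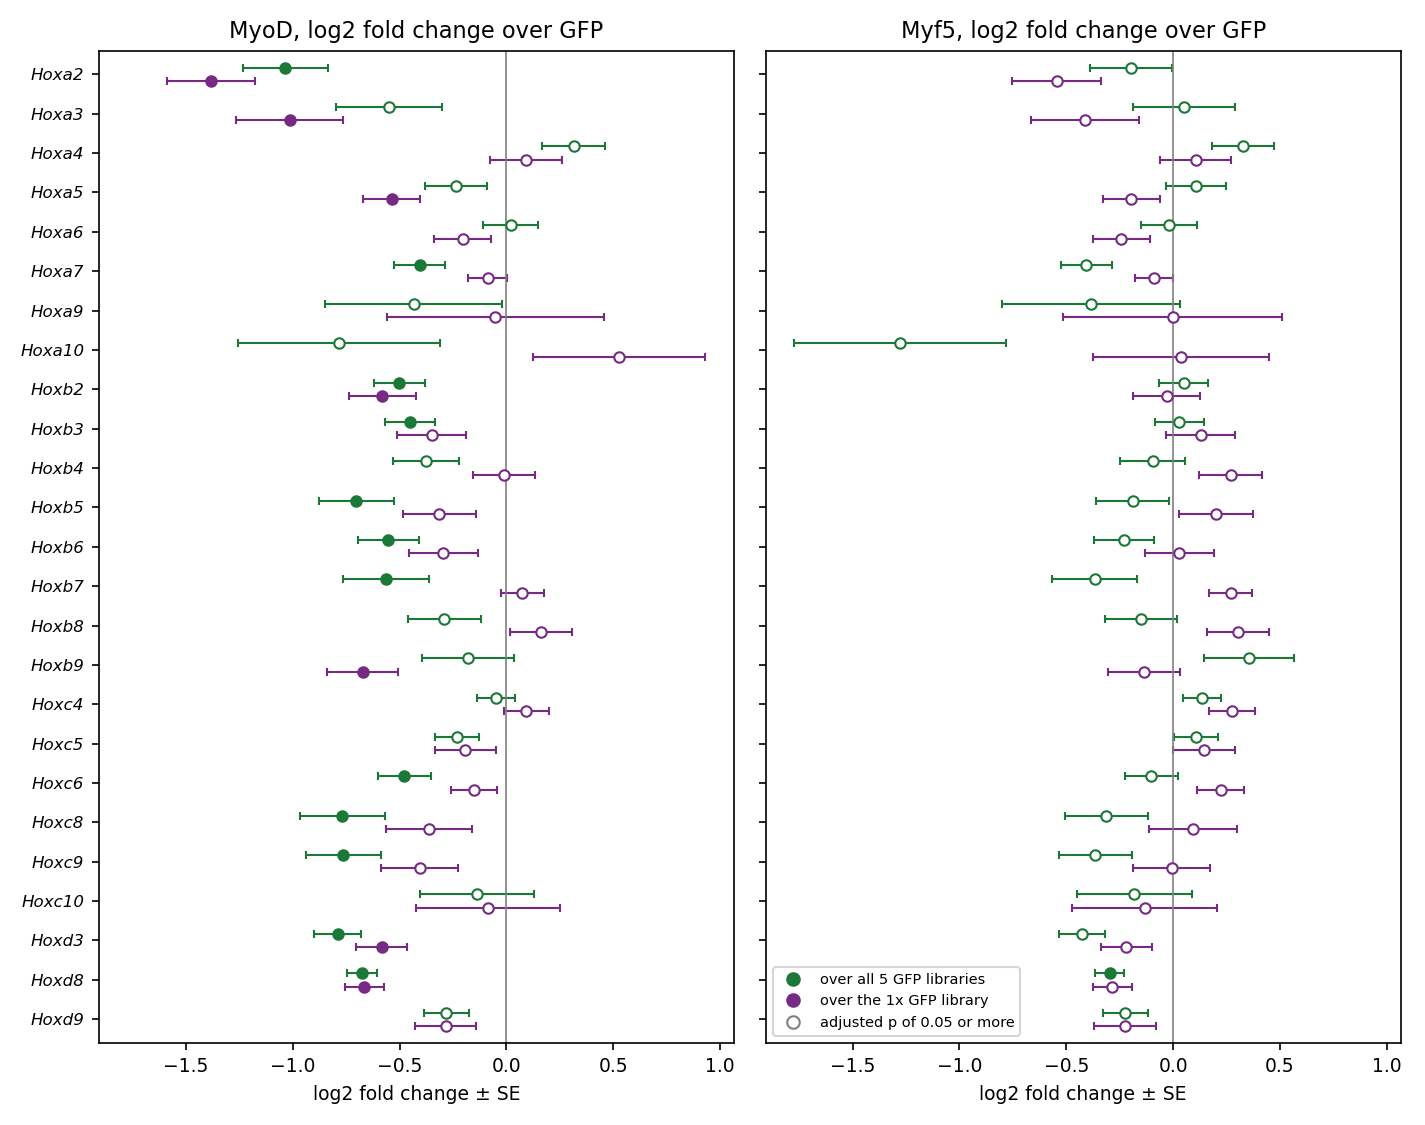
Log2 fold changes ± SE (x axes) of 25 tested Hox genes (rows, by cluster) for MyoD (left) and Myf5 (right), over all 5 GFP libraries (green) and over the 1x GFP library (purple). Filled points have an adjusted p under 0.05 in edgeR's quasi-likelihood test. Both MyoD points are filled for Hoxa2 (−1.03 and −1.38), Hoxb2, Hoxd3 and Hoxd8, and for Myf5 only Hoxd8 over all GFP libraries (−0.30) is filled.

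By cluster, MyoD over all GFP libraries called 2 of 9 tested Hoxa genes, 5 of 8 Hoxb genes, 3 of 6 Hoxc genes and 2 of 3 Hoxd genes lower. Over 1x GFP it called 3 of 9, 2 of 8, 0 of 6 and 2 of 3. Of all genes tested, 20.9% were lower over all GFP libraries and 15.4% over 1x GFP. By position, 4 of 9 genes of groups 1 to 4 were lower with each control. Hoxa2, Hoxb2 and Hoxd3 were lower with both, Hoxb3 only over all GFP libraries and Hoxa3 only over 1x GFP. In groups 5 to 8 the count was 7 of 11 over all GFP libraries and 2 of 11 over 1x GFP, so most of what differed between the controls lay in the trunk groups.

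Fewer Hox genes were called with Myf5. Over all 5 GFP libraries 1 of the 26, Hoxd8, was lower and 0 were higher, where 2.29% of all genes were called lower, 3.81% higher and 6.10% in either direction. Over 1x GFP 0 were called in either direction, where 0.152% of all genes were lower, 1.03% higher and 1.18% called in all, and 4 Hox genes had an unadjusted p under 0.05 with each control, as had 3945 of all 13825 genes over all GFP libraries and 2410 over 1x GFP. This comparison and that of MyoD share the GFP libraries. Hoxd8 was at 78.2 and 74.3 CPM in the 1x and 2x Myf5 libraries, against 95.4 to 98.7 CPM in the MOI libraries and 92.0 CPM in the 1x GFP library. The Myf5 libraries lay between the MyoD and the GFP libraries. For Hoxd8 the log2 fold change was −0.30 ± 0.07 over all GFP libraries (edgeR's quasi-likelihood test, adjusted p = 0.0391) and −0.28 ± 0.09 over 1x GFP (adjusted p = 0.181). The call was lost with no filter on low counts (edgeR, adjusted p = 0.0817) and on leaving out any 1 of the Myf5 or MOI libraries (−0.34 to −0.27, adjusted p of 0.0787 to 0.413), and held without 1x GFP (adjusted p = 0.00821).

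Hoxd3 was at 71.3 and 63.2 CPM in the 1x and 2x Myf5 libraries, against 93.3 to 98.8 CPM in the MOI libraries and 77.6 CPM in the 1x GFP library. It lay below every GFP library, with a log2 fold change of −0.43 ± 0.11 over all of them (edgeR's quasi-likelihood test, adjusted p = 0.0513) and −0.22 ± 0.12 over 1x GFP (adjusted p = 0.379). Hoxa2 was at 15.9 and 13.7 CPM in the Myf5 libraries, against 15.9 to 16.7 CPM in the MOI libraries and 21.4 CPM in the 1x GFP library. Hoxb2 was at 20.7 and 20.1 CPM in the Myf5 libraries, within the range of 17.0 to 23.0 CPM in the GFP libraries. Its log2 fold change of 0.05 ± 0.12 was near 0.

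The difference between both factors was tested directly. MyoD was lower than Myf5 in Hoxd8 alone among the 26 Hox genes, where 1.29% of all genes were called lower, 4.21% higher and 5.50% in either direction. The log2 fold change of Hoxd8 was −0.38 ± 0.08 (edgeR's quasi-likelihood test, adjusted p = 0.0357), and it was not called without the 2x MyoD library or without either Myf5 library (−0.41 to −0.27, adjusted p of 0.121 to 0.251). In a fit of the 4 MyoD and Myf5 libraries alone, with dose as a block, 7 of 23 tested Hox genes were lower and 0 higher (Hoxa2, Hoxa3, Hoxb2, Hoxb3, Hoxb9, Hoxd3 and Hoxd8), where 6.42% of 13346 genes were called lower, 9.38% higher and 15.8% in either direction. When the MOI libraries form a group of their own, which changes only the pooled spread, 8 Hox genes were lower and 0 higher, where 8.74% of all genes were called lower, 10.7% higher and 19.4% in either direction.

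These 8 were Hoxa2, Hoxb2, Hoxb3, Hoxb5, Hoxb9, Hoxc6, Hoxd3 and Hoxd8, with log2 fold changes of −0.36 (Hoxd3) to −0.84 (Hoxa2) and adjusted p of 0.0181 to 0.0395 (edgeR's quasi-likelihood test). Hoxa2 was at 10.1 and 6.28 CPM with MyoD, against 15.9 and 13.7 CPM with Myf5. Hoxb2 was at 15.1 and 12.4 CPM with MyoD, against 20.7 and 20.1 CPM with Myf5. The groups did not overlap in either gene. Muscle genes moved with this difference, since 12 muscle differentiation genes summed to 1451 and 3671 CPM in the 1x and 2x MyoD libraries and 139 and 303 CPM in the Myf5 libraries. The 10 interferon-stimulated genes summed to 371 and 342 CPM in the MyoD libraries and 884 and 2891 CPM in the Myf5 libraries, and 8 of them were called lower with the MOI libraries apart and 0 with all 5 GFP libraries as 1 group. The part of either list in the Hox result was not tested.

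The 2x dose was compared with the 1x dose within both factors. None of the 26 Hox genes was called by edgeR's quasi-likelihood test or by DESeq2. Of all 13825 genes, edgeR called 0.0217% and DESeq2 called 290 genes. In edgeR 3 Hox genes had an unadjusted p under 0.05, all lower at 2x, where 1528 of 13825 genes had such a p in either direction. By CPM, 22 of 26 Hox genes had a lower value in the 2x than in the 1x MyoD library and 4 a higher one. In the Myf5 libraries 15 had a lower and 11 a higher value. Each side is 1 library, and the share of all genes with a lower value at 2x was not counted. The median log2 fold change of 2x over 1x was −0.25 for the Hox genes with MyoD, against 0.00 for all genes, and −0.04 with Myf5, against 0.01. The largest of these differences was that of Hoxa3, at 6.87 CPM in the 2x and 12.03 CPM in the 1x MyoD library, with a log2 fold change of −0.77 ± 0.35 (edgeR's quasi-likelihood test, adjusted p = 0.550). The dose effect itself was called different between MyoD and Myf5 for 0 Hox genes by edgeR, where 0.0% of all genes were called. By the same test 0 Hox genes had an unadjusted p under 0.05, where 275 of 13825 genes had.

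The control virus was compared with no virus. With all 5 GFP libraries, none of the 26 Hox genes was called against the single untransduced library by edgeR, where 8.35% of all genes were. By edgeR 7 Hox genes had an unadjusted p under 0.05, as had 4117 of all 13825 genes. DESeq2 called 1 Hox gene, Hoxb6, higher in GFP, where it called 1186 of 13825 genes higher and 1326 lower. With 1x GFP alone no Hox gene was called by edgeR either, where 4.94% of all genes were. Here 1 Hox gene had an unadjusted p under 0.05, as had 2885 of 13825 genes. The 1x GFP and untransduced libraries lay close in most Hox genes, with 77.6 and 76.1 CPM for Hoxd3 and 21.7 and 21.8 CPM for Hoxb7. Hoxb9 differed more, at 10.5 CPM in the 1x GFP and 7.44 CPM in the untransduced library.

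The MOI libraries differed from both of those controls. Against 1x GFP, 6 Hox genes were higher (Hoxa7, Hoxa10, Hoxb4, Hoxb7, Hoxb8 and Hoxc6) and 2 lower (Hoxa5 and Hoxb9), where 12.1% of all genes were called higher, 12.2% lower and 24.4% in all. Hoxa10 passed the filter only through the 4 MOI libraries in which it was high, which leaves 5 higher besides it. Hoxb7 was 0.77 ± 0.10 higher on the log2 scale (edgeR's quasi-likelihood test, adjusted p = 0.00210), and Hoxa7 0.39 ± 0.09 (adjusted p = 0.0145). Hoxc6, Hoxb4 and Hoxb8 had log2 fold changes of 0.40 (Hoxc6) to 0.56 (Hoxb8), and the lower ones −0.40 ± 0.12 (Hoxa5) and −0.67 ± 0.15 (Hoxb9). Against untransduced cells, 9 were higher and 3 lower, where 18.2% of all genes were called higher, 19.2% lower and 37.4% in all, and the 6 genes higher against 1x GFP were among the 9, with Hoxb5, Hoxb6 and Hoxc9, which leaves 8 besides Hoxa10. The 3 lower against untransduced cells were Hoxa4, Hoxa5 and Hoxa6. Interferon-stimulated genes moved with this difference. Their 10 genes summed to 1660 to 4365 CPM in the MOI libraries, against 291 CPM in the 1x GFP library and 266 CPM in untransduced cells. Virus load, depth and any other way in which these libraries were made cannot be told apart here.

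Within the MOI series, only Hoxb2 of the 26 had a slope on log2 MOI that was called, where 7.49% of 13383 genes were. It was at 23.0, 20.0, 19.9 and 17.0 CPM at MOI 15, 30, 60 and 120, a slope of −0.13 ± 0.04 per doubling (edgeR's quasi-likelihood test, adjusted p = 0.0388). DESeq2 did not call it, and no Hox gene was called without the library at MOI 15, 30 or 120. Hoxd8 lay within 95.4 to 98.7 CPM over the same series and Hoxc6 within 85.6 to 90.4 CPM.

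Chimera was compared with the second-batch MyoD library, whose virus was balanced to it, 1 library each, so no test was possible and the intervals cover counting error only. Of 23 Hox genes with at least 50 counts over both libraries, 2 were at least 1.5-fold higher in Chimera and 4 at least 1.5-fold lower, where 7.31% of 13412 genes were higher, 7.11% lower and 14.4% past that fold either way. The median log2 ratio was −0.18 over these Hox genes and −0.02 over all genes.

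Hoxa2 was at 14.7 CPM in Chimera, against 6.97 CPM in second-batch MyoD, a ratio of 2.11 (exact 95% binomial interval 1.75 to 2.55). Hoxa3 was at 11.2 CPM in Chimera, against 7.43 CPM in MyoD, a ratio of 1.502 (1.24 to 1.82). Just under that fold, Hoxd3 was at 90.3 CPM in Chimera, against 60.5 CPM in MyoD, a ratio of 1.49 (1.397 to 1.596), and Hoxd8 was at 85.6 CPM in Chimera, against 64.2 CPM in MyoD, a ratio of 1.33 (1.25 to 1.43). Hoxb2 went the other way, at 11.1 CPM in Chimera, against 13.2 CPM in MyoD, a ratio of 0.841 (0.713 to 0.992).

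The 4 genes past the fold in the other direction were Hoxa4, Hoxb6, Hoxb7 and Hoxb8. Hoxb7 was at 20.4 CPM in Chimera, against 34.9 CPM in MyoD, a ratio of 0.583 (0.521 to 0.652). Hoxb8 was at 11.2 CPM in Chimera, against 18.5 CPM in MyoD, a ratio of 0.606 (0.520 to 0.706). The ratio was 0.649 (0.541 to 0.778) for Hoxb6 and 0.518 (0.330 to 0.799) for Hoxa4. Hoxa10, under the minimum of 50 counts, had 2 counts in Chimera and 32 in MyoD. Of the 23 genes at the minimum or above, only Hoxa2 was past 2-fold, where 359 of 13412 genes were 2-fold higher and 311 lower.

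**Figure D5:**
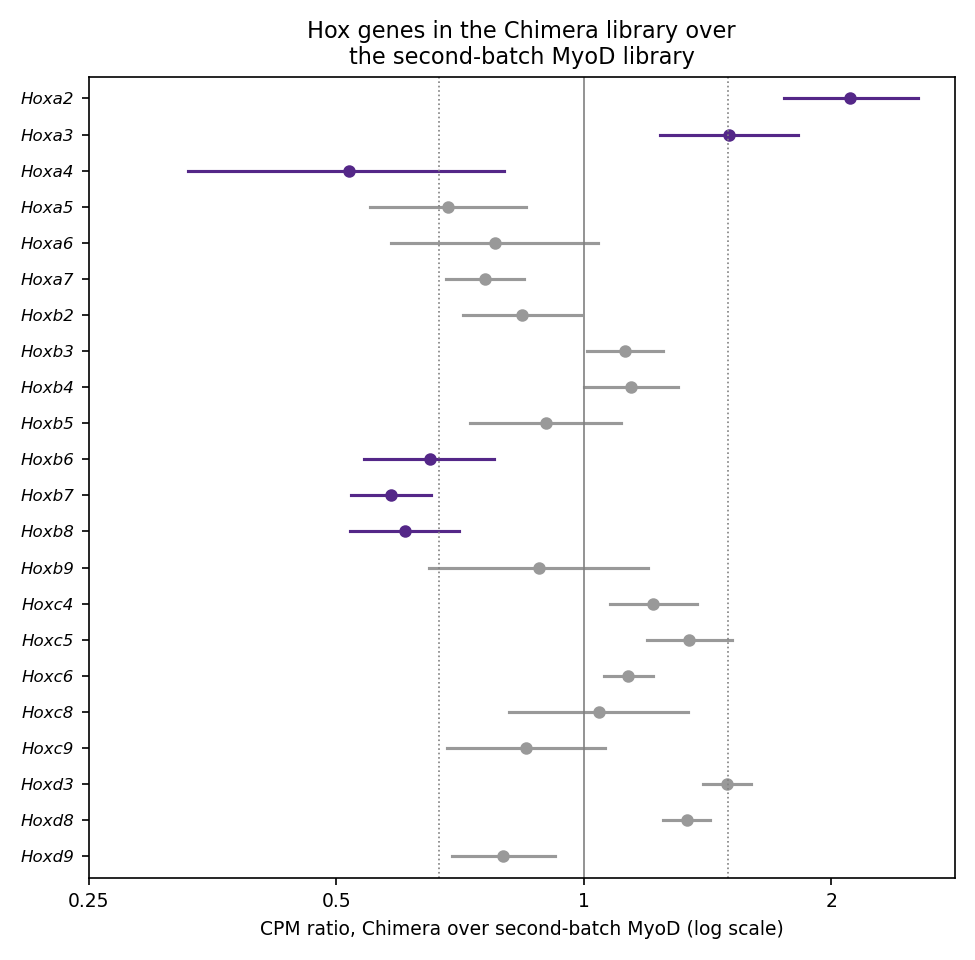
CPM ratio of Chimera over second-batch MyoD (x axis, log scale) for 22 of the Hox genes compared (rows), with exact 95% binomial intervals that cover counting error only. Dotted lines mark 1.5-fold either way, and genes past it are purple. Hoxa2 (2.11) and Hoxa3 (1.502) lie to the right, and Hoxa4 (0.518), Hoxb6 (0.649), Hoxb7 (0.583) and Hoxb8 (0.606) to the left.

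All Hox genes summed to 499 CPM in Chimera and 460 CPM in MyoD. Groups 1 to 4 made up 41.1% of Hox counts in Chimera and 34.2% in MyoD, and the Hoxd cluster 38.1% in Chimera and 30.9% in MyoD. Other sums also differed between these libraries. The 12 muscle genes summed to 1221 CPM in Chimera and 3349 CPM in MyoD, the 10 fibroblast markers to 24099 CPM in Chimera and 18117 CPM in MyoD, and the 10 interferon-stimulated genes to 2550 CPM in Chimera and 1378 CPM in MyoD. Their part in the Hox ratios was not tested. No GFP library belongs to this table, so neither library can be set against a control here.

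The partners and regulators of the Hox genes were read from lists of genes chosen with earlier results of these data known. The TALE proteins are homeodomain partners of Hox proteins on DNA. In MyoD over GFP 1 of 8 tested TALE genes was higher and 1 lower, beside 21.4% of all genes called higher and 20.9% lower, with a median log2 fold change of −0.17, against −0.03 over all genes. Pknox1, which pairs with Pbx proteins, rose by 0.63 ± 0.08 (edgeR's quasi-likelihood test, adjusted p = 0.000758) and was also higher over 1x GFP (0.51 ± 0.11, adjusted p = 0.0115). Meis3 was lower over all GFP libraries (−0.52 ± 0.13, adjusted p = 0.0115) but not over 1x GFP (−0.18 ± 0.09, adjusted p = 0.179). The summed TALE level was 275 and 257 CPM in the MyoD libraries, 280 and 282 CPM in the Myf5 libraries and 265 to 290 CPM in the GFP libraries.

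Among 16 tested positional factors outside the Hox clusters, 1 was higher and 5 were lower in MyoD over GFP, and 1 was higher and 8 were lower over 1x GFP. The shares over all genes were 21.4% higher and 20.9% lower over GFP and 15.1% higher and 15.4% lower over 1x GFP. Alx4, a limb and skull gene, was higher (0.84 ± 0.13 over all GFP libraries, edgeR's quasi-likelihood test, adjusted p = 0.00133). The forebrain and urogenital gene Emx2 (−0.74 ± 0.10, adjusted p = 0.000886), the dorsal skin gene Tbx15 (−0.43 ± 0.06, adjusted p = 0.00120) and the ventral limb gene En1 (−0.38 ± 0.09, adjusted p = 0.00804) were lower by edgeR, and all 4 genes were called in the same direction over 1x GFP. The list's median was −0.20 over all GFP libraries and −0.29 over 1x GFP.

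Polycomb proteins keep silent Hox genes off, and Trithorax proteins keep active ones on. All 25 Polycomb genes were tested, and 4 were higher and 11 lower in MyoD over GFP, with a median of −0.19, while over 1x GFP 3 were higher and 4 lower. Calls in either direction were 15 of 25 over all GFP libraries, where 42.4% of all genes were called, and 7 of 25 over 1x GFP, where 30.5% were. Rbbp4, a histone-binding subunit, was higher (0.61 ± 0.08, edgeR's quasi-likelihood test, adjusted p = 0.000865). The chromobox gene Cbx6 (−0.90 ± 0.15), the Polycomb-like gene Phf1 (−0.40 ± 0.06) and the methyltransferase gene Ezh1 (−0.58 ± 0.11) were lower, with adjusted p of 0.00149 to 0.00345 by edgeR. Of 20 Trithorax and demethylase genes, 2 were higher and 2 lower over all GFP libraries, with a median of −0.01, and 4 were higher and 1 lower over 1x GFP, against the same 42.4% and 30.5% of all genes called. Psip1, a chromatin tether, was lower (−0.44 ± 0.08, adjusted p = 0.00371) and Ash2l, a core subunit of the complexes, was higher (0.25 ± 0.06, adjusted p = 0.00975) by edgeR. The smaller calls were Wdr5, at 0.18, and Smc3, at −0.16.

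Retinoic acid is an upstream signal of Hox genes in the embryo. Of 14 tested genes of its pathway, 2 were higher and 6 lower in MyoD over GFP, and 2 were higher and 5 lower over 1x GFP. That makes 8 of 14 called over GFP, where 42.4% of all genes were, and 7 of 14 over 1x GFP, where 30.5% were. The receptor gene Rxra was higher (0.44 ± 0.06, edgeR's quasi-likelihood test, adjusted p = 0.000886). Stra6, which takes up retinol, was at 3.31 and 1.55 CPM in the 1x and 2x MyoD libraries, against 17.4 to 31.1 CPM in the MOI libraries and 11.8 CPM in the 1x GFP library. Its log2 fold change was −3.14 ± 0.51 (edgeR, adjusted p = 0.00179). Dhrs3, which reduces retinaldehyde (−1.12 ± 0.19, adjusted p = 0.00207) and Cyp26b1, which breaks retinoic acid down (−1.91 ± 0.39, adjusted p = 0.00532), were also lower by edgeR. Stra6 was also called lower in Myf5 over all GFP libraries, at 3.87 and 1.77 CPM in the 1x and 2x Myf5 libraries. No gene of this list was called in Myf5 over 1x GFP.

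The genes next to the clusters went both ways. Of 16 tested genes that flank the clusters, 2 were higher and 3 lower in MyoD over GFP, with a median of −0.04, and 3 were higher and 1 lower over 1x GFP, with a median of −0.01. These 5 of 16 and 4 of 16 called stand beside 42.4% of all genes over GFP and 30.5% over 1x GFP. Calcoco1, an autophagy receptor gene, was at 213 and 241 CPM in the 1x and 2x MyoD libraries, against 125 to 131 CPM in the MOI libraries and 118 CPM in the 1x GFP library, a log2 fold change of 0.90 ± 0.07 (edgeR's quasi-likelihood test, adjusted p = 7.32e-05). Nfe2l1, a regulator of proteasome genes, was also higher (0.47 ± 0.08, adjusted p = 0.00250), and Hnrnpa3, for an RNA-binding protein, was lower (−0.30 ± 0.07, adjusted p = 0.00779) by edgeR. Cbx3, for a heterochromatin protein, was lower by a smaller step (−0.22).

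Noncoding genes inside the clusters, a list chosen after their values were seen, were tested in the same fit. Of 6 tested, 3 were lower and 0 higher in MyoD over GFP, and 1 was lower over 1x GFP, where 20.9% and 15.4% of all genes were lower. Hoxaas2, which lies antisense to Hoxa3, was at 3.72 and 2.29 CPM in the 1x and 2x MyoD libraries, against 5.37 to 6.89 CPM in the MOI libraries and 8.45 CPM in the 1x GFP library. Its log2 fold change was −1.08 ± 0.26 over all GFP libraries (edgeR's quasi-likelihood test, adjusted p = 0.00962) and −1.48 ± 0.27 over 1x GFP (adjusted p = 0.00693). Hoxb3os, antisense to Hoxb2 and Hoxb3, was at 51.6 and 36.7 CPM in the MyoD libraries, against 70.2 to 75.6 CPM in the MOI libraries and 60.3 CPM in the 1x GFP library, and was called over all GFP libraries only. Hotair and Hottip, from the posterior ends of Hoxc and Hoxa, had no counts in the first table.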

How the data were processed

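The 38 Hox genes and the gene lists were chosen with earlier results of these data known. RNA was selected with oligo-dT and sequenced on an Illumina HiSeq, per the labels. The submitters' processing notes name CASAVA 1.8.2, TopHat2 2.0.8 and mm9, while no source used here gives the counting program or its strand setting. The first table holds estimated counts per gene as deposited by the authors, rounded here to whole numbers, and the second holds raw counts per gene as deposited by the authors. Mitochondrial genes hold 0% of counts in the first table and 4.05% and 4.18% in the second, so changes were compared within a table only. Detection at 1 CPM and the level of Hoxa10 were described over both tables, whose CPM values are not on the same scale.

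Counts per 1000000 counts (CPM) were computed on the total of each library, of 17861174 to 81513727 counts. Genes with at least 1 CPM in at least 2 libraries were tested across the table with edgeR 4.0.16 (TMM factors, quasi-likelihood test, two-sided, Benjamini-Hochberg, threshold 0.05, R 4.3.3) on all 10 libraries. DESeq2 1.42.0, RLE factors, no filter, other controls and leaving out libraries were alternatives. Standard errors were the log2 fold change over the root of F. Chimera was compared by CPM ratio at a minimum of 50 counts over both libraries. All libraries of a group differed beyond sampling noise. Of the 23 Hox genes averaging at least 1 CPM, all are named except 1 that is not reported here, called genes by smallest p, and up to 4 called genes of each list. Symbols came from a name table, exon lengths from GENCODE vM21 (GRCm38), and promoters from RefSeq (GRCm38.p6), which matched 21 of the genes. Intervals cover counting error only.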

Additional observations from a re-analysis of the deposited data

Results flagged for a closer look

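In 8 of the 26 tested Hox genes the 1x GFP library lay far from the 4 MOI libraries of the same group by Dixon's test, a gap that chance gives in about 1 of 20 groups. The genes share these libraries, so the 8 are not separate evidence. The share of all genes past this gap was not computed. Between the MOI series and 1x GFP, edgeR called 24.4% of all genes, so the 8 are not shown to be particular to Hox genes. The 1x GFP library was high for 3 of them: Hoxa2 was at 21.4 CPM, with the others at 15.9 to 16.7, Hoxa3 was at 19.1 CPM, with the others at 12.3 to 14.03, and Hoxb9 was at 10.5 CPM, with the others at 6.27 to 7.38. It was low for 5. Hoxb5 was at 7.60 CPM (others 10.8 to 11.3), Hoxb7 at 21.7 CPM (others 36.9 to 41.6) and Hoxb8 at 12.4 CPM (others 18.3 to 19.5). Hoxc6 was at 64.4 CPM (others 85.6 to 90.4) and Hoxd3 at 77.6 CPM (others 93.3 to 98.8). The 1x GFP library has 81513727 counts and the MOI libraries 17861174 to 22373706, and the cause was not tested.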

How the results depend on the processing

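For MyoD over GFP, 12 Hox genes were called with all GFP libraries, 7 with 1x GFP as control, 0 with the 6 deeper libraries alone, where 0 of 13484 genes were called by edgeR and 4124 had an unadjusted p under 0.05 (7 Hox genes among them), and 2 to 16 when a library was left out, 2 without 2x MyoD, where 1833 of 13709 genes were called, and 16, of which 1 was higher, without 1x GFP, where 8073 of 13804 were. For Myf5 over GFP, 1 was called, against 0 with 1x GFP, 0 with the 6 deeper libraries (0 of 13484 genes by edgeR, 1212 with an unadjusted p under 0.05), 3 with DESeq2 (2143 of 13825 genes), 0 with no filter (813 of 24992 genes) and 0 to 8 with a library left out, 8 without 1x GFP, 2 higher and 6 lower, where 5063 of 13804 genes were called. For MyoD over Myf5, 1 was called, against 8 with the MOI libraries apart, 4 with DESeq2 (1750 of 13825 genes), 0 with no filter (722 of 24992 genes) and 0 to 6 with a library left out, 6 without 1x MyoD, where 2100 of 13729 genes were called. The labels give no replicate numbers to pair libraries by. With the shared dose as a block, the 4 MyoD and Myf5 libraries called 7 of 23 Hox genes, all lower, and 2109 of 13346 genes. For GFP over untransduced cells, 0 were called, against 1 with DESeq2 (2512 of 13825 genes). With a library left out the count was 0 to 12, 12 without 1x GFP, where 5142 of 13804 genes were called. For the MOI slope, 1 was called, against 0 with DESeq2 (486 of 13383 genes) and 0 to 1 with a library left out. For Chimera, 6 were past 1.5-fold, where 14.4% of 13412 genes were. Past 2-fold was 1 Hox gene, where 359 of 13412 genes were higher and 311 lower. The log2 fold change of Hoxb7 in MyoD over GFP turned to 0.0748 with 1x GFP and 0.0723 with the 6 deeper libraries, and that of Hoxb9 ranged over −0.356 to 0.00905 with a library left out, the highest without 1x GFP. The cause was not tested. Leaving out libraries for the 2x dose, an alternative added after seeing the data, kept 0 Hox genes called. Over all genes, MyoD over GFP called 5856, Myf5 over GFP 843 and 163 with 1x GFP, and MyoD over Myf5 761 and 2682 with the MOI libraries apart. With 2 libraries a group and 1 untransduced, small changes in low genes such as Hoxa9, Hoxa10 and Hoxc10 are not resolved.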
